A study of Mus musculus with 8 samples.

Results

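The mouse mitochondrial genome carries 37 genes, and all 37 were among the 55335 genes of the deposited table, chosen as every gene whose symbol begins with mt-. They were 13 mRNA genes, 2 ribosomal RNA genes and 22 transfer RNA genes. Their RNA was read in RAW264.7 cells, a macrophage-like mouse line, after 3 days of culture with a bone scaffold. The HA/Mg scaffold is hydroxyapatite doped with Mg2+, and TABS is short for Trio-Active bone scaffold, whose components the labels do not name. Sequencing covered 4 TABS and 4 HA/Mg libraries, numbered 5 to 8 in either group and alike in line, culture time and standard conditions. No library came from cells without a scaffold, so every difference is between the scaffolds. Whether replicates were separate cultures is not stated, so p-values measure only the spread among these libraries, and that spread may be technical. Groups were taken from the titles. The letter in the names of the TABS libraries is H, which could also stand for HA, and if the groups were swapped all directions would be the opposite.

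Mitochondrial DNA is a small circle whose strands are each copied into long transcripts by a dedicated mitochondrial RNA polymerase. The transfer RNAs lie like punctuation between most of the other genes, and cutting them out releases the mRNAs and the ribosomal RNAs. The mRNAs encode membrane subunits of respiratory complexes I, III and IV and of the ATP synthase, while all other subunits come from nuclear genes. In macrophages the respiratory chain supplies ATP and is also known as a source of reactive oxygen species used in signalling.

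Of the 37 genes, 26 reached 1 FPKM in 4 or more libraries and were tested. FPKM scales the fragments of a gene to its length and to the mapped fragments of the library. With TABS relative to HA/Mg, 4 of the 26 fell, none rose and 22 did not pass limma's test at an adjusted p of 0.05. All 4 that fell were mRNAs for subunits of complex I, namely mt-Nd1, mt-Nd4, mt-Nd4l and mt-Nd5. Over all 10161 genes tested, 18.1% changed, with 13.1% lower and 5.07% higher with TABS, so 4 of 26 is near the share of all genes that fell. The median log2 change was -0.16 over the 26 genes and -0.04 over all genes tested. A log2 change is the TABS mean minus the HA/Mg mean of log2(FPKM + 1), given with the model's standard error. Among the genes that changed, 28.0% were higher with TABS, a share that was 44.8% with median-of-ratios scaling, 40.3% with quantile normalization, 40.6% with length and GC trends removed, 13.9% with equal sums and 12.0% with mitochondrial genes left out of the sum. The count of mitochondrial mRNAs that fell was 1 without HA/Mg library 5 or 7, 2 without TABS library 5 or 8 or HA/Mg library 8, and 6 without HA/Mg library 6. Of all 10161 genes tested, 321 fell without HA/Mg library 5, 347 without HA/Mg library 7 and 510 without HA/Mg library 8. The number was 632 without TABS library 5, 891 without TABS library 8 and 2452 without HA/Mg library 6.

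The libraries held an estimated 19700000 to 23700000 fragments, and 9908 to 10280 genes reached 1 FPKM. Of 10 macrophage markers, 9 reached that level, with Mrc1 below 0.1 FPKM, and their summed FPKM was 2479 to 2779 with TABS and 2041 to 2442.7 with HA/Mg. Of 6 osteoclast markers, 2 reached 1 FPKM, with sums of 131 to 162 and 87.3 to 123. No marker of osteoblast and stromal, epithelial, endothelial, lymphoid or neutrophil cells did. The part of these levels in the mitochondrial values was not tested. In RNA from bulk cultures, less mitochondrial RNA per cell and a changed mix of cells cannot be told apart.

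Neighbouring mitochondrial genes overlap at several points, which bears on how fragments are assigned. The stretches that follow are the 3 longest overlaps between mRNA genes, taken from the GENCODE M21 transcripts of GRCm38 and written on the plus strand, with the bases that belong to both genes in capitals. The first, of 43 bases, lies at chrM:7907-7989 with its flanks, the next, of 7 bases, at chrM:10147-10193, and the last, of 14 bases, at chrM:13532-13585.
mt-Atp8 to mt-Atp6: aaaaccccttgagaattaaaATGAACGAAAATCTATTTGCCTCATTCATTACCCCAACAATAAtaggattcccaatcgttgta
mt-Nd4l to mt-Nd4: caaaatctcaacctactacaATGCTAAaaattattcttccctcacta
mt-Nd5 to mt-Nd6: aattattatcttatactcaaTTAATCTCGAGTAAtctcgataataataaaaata
In the first and the next stretch the capitals open with the ATG of the downstream gene and close with the TAA of the upstream gene, and both genes are read from the same bicistronic mRNA. In the last stretch mt-Nd5 is read from left to right and mt-Nd6 from right to left on the opposite strand. No source used here says whether the authors counted by strand, so fragments from overlapping or facing genes cannot be told apart.

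Complex I, NADH dehydrogenase, takes electrons from NADH and pumps protons, and 7 of its membrane subunits are mitochondrially encoded. All 7 mRNAs had negative log2 changes, with a median of -0.33, and 4 passed the test. Over all 10161 genes tested, 5866 had a negative log2 change and 13.1% fell. mt-Nd4 (chrM:10167-11544, plus strand) encodes a large proton-pumping subunit. Its FPKM was 415, 409, 425 and 374 in TABS libraries 5 to 8, and 486, 497, 497 and 566 in HA/Mg libraries 5 to 8. All 4 TABS libraries lay below all 4 HA/Mg libraries, and HA/Mg library 8 stood above the other HA/Mg libraries. The means were 406 ± 22.2 and 512 ± 36.5 (SD, n = 4 each), 1.26-fold higher with HA/Mg, a log2 change of -0.33 ± 0.06 (limma, adjusted p = 0.0135). The call held with any single library left out, with adjusted p from 0.00824 to 0.0432.

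mt-Nd5 (chrM:11742-13565, plus strand) encodes another of the large proton-pumping subunits and lies next downstream of mt-Nd4 among the mRNAs. Its FPKM was 465, 441, 455 and 433 with TABS and 532, 504, 542 and 588 with HA/Mg. The groups did not overlap, and the TABS libraries were close to each other. The means were 449 ± 14.1 and 541 ± 35.0 (SD, n = 4 each), 1.21-fold higher with HA/Mg, a log2 change of -0.27 ± 0.05 (limma, adjusted p = 0.0159). The adjusted p rose to 0.0511 without HA/Mg library 5 and to 0.0531 without HA/Mg library 7.

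mt-Nd4l (chrM:9877-10173, plus strand) encodes a small subunit and shares its mRNA with mt-Nd4. Its FPKM was 171, 139, 186 and 142 with TABS and 194, 223, 189.7 and 209.5 with HA/Mg. The groups did not overlap, though TABS library 7 and HA/Mg library 7 were separated by little. The fold was 1.28 higher with HA/Mg, a log2 change of -0.36 ± 0.10 (limma, adjusted p = 0.0359). This call was lost without any of 6 of the 8 libraries, TABS 5, 6 and 8 and HA/Mg 5, 7 and 8, with adjusted p from 0.0556 to 0.0878. It was also lost with median-of-ratios scaling (adjusted p = 0.0783) and when genes of low value were kept in (adjusted p = 0.104). Over all tested genes 15.0% had 4 TABS values below all 4 HA/Mg values, against 3 of the 26 mitochondrial genes, mt-Nd4, mt-Nd4l and mt-Nd5.

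mt-Nd1 (chrM:2751-3707, plus strand), the first mRNA after the ribosomal RNA genes, encodes the subunit near the ubiquinone site. Its FPKM was 497, 578, 399.8 and 520.2 with TABS and 782, 555, 868 and 999.6 with HA/Mg. HA/Mg library 6 lay below TABS library 6, so the groups overlapped, while the other HA/Mg libraries were above every TABS library. The means were 499 ± 74.2 and 801 ± 187 (SD, n = 4 each), 1.61-fold higher with HA/Mg, a log2 change of -0.66 ± 0.17 (limma, adjusted p = 0.0328). Its change was the largest in size among the 13 mRNAs. The call was lost without TABS 5, 7 or 8 or HA/Mg 5, 7 or 8, with adjusted p from 0.0560 to 0.0921, and when genes of low value were kept in (adjusted p = 0.103).

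The other 3 mRNAs of complex I did not pass. mt-Nd2 (chrM:3914-4951) was at 274, 262, 196 and 214 FPKM with TABS and 300.4, 231, 286 and 351 with HA/Mg, a log2 change of -0.30 ± 0.14 (limma, adjusted p = 0.149). mt-Nd3 (chrM:9459-9806) was the lowest of the 13 mRNAs, at 27.6, 38.8, 19.0 and 27.5 FPKM with TABS and 43.7, 24.0, 42.5 and 63.8 with HA/Mg, a log2 change of -0.57 ± 0.28 (limma, adjusted p = 0.173). In both, HA/Mg library 6 was the lowest of its group and lay within the TABS range. Without that library mt-Nd2 and mt-Nd3 passed, with adjusted p of 0.0382 and 0.0262, and mt-Nd2 also passed with array weights (adjusted p = 0.0497). Over all 10161 genes tested, 3320 passed without that library and 3532 with array weights, against 1842 in the main fit. mt-Nd6 (chrM:13552-14070) is the only mRNA gene on the minus strand. It was at 125, 83.3, 199 and 124 FPKM with TABS and 137, 178, 135 and 127 with HA/Mg, a log2 change of -0.17 ± 0.22 (limma, adjusted p = 0.606). Its high libraries were TABS 7 and HA/Mg 6, and the groups overlapped fully.

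**Figure D1:**
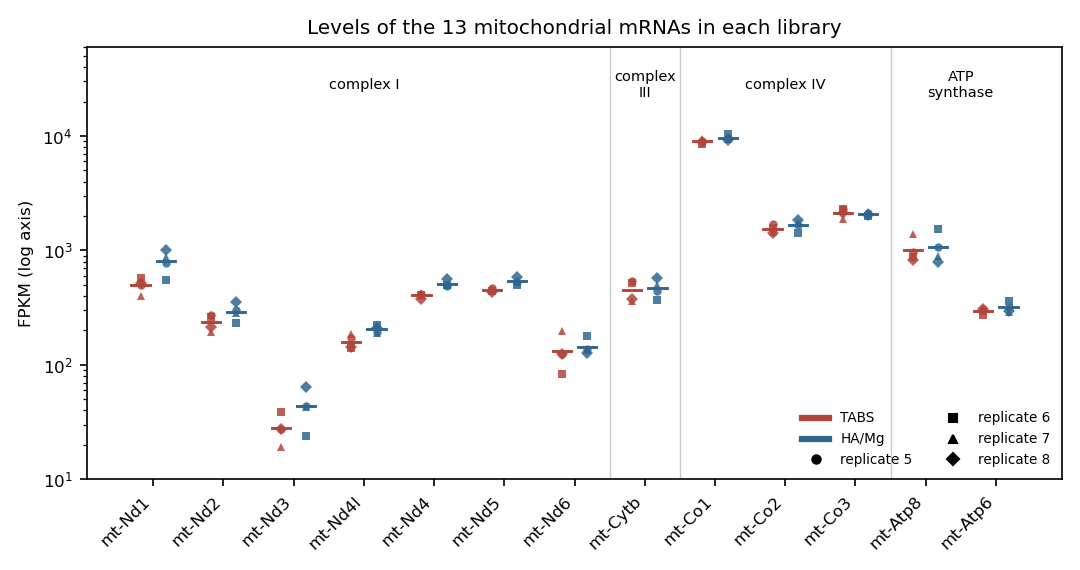
FPKM on a log axis of the 13 mitochondrial mRNAs in each of the 8 libraries, with points for single libraries and bars for the group means. mt-Nd4, mt-Nd4l and mt-Nd5 are the genes whose TABS points all lie below the HA/Mg points, and mt-Co1 is the highest in both groups.

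The remaining 6 mRNAs encode subunits of complexes III and IV and of the ATP synthase, and none of them passed the test. Their median log2 change was -0.08. mt-Cytb (chrM:14145-15288), cytochrome b of complex III, was at 542, 521, 364 and 379 FPKM with TABS and 439, 372, 496 and 579 with HA/Mg. Both groups spanned nearly the same range, with a log2 change of -0.07 ± 0.16 (limma, adjusted p = 0.802).

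Complex IV, cytochrome c oxidase, passes electrons to oxygen, and its catalytic core is built from mt-Co1, mt-Co2 and mt-Co3. mt-Co1 (chrM:5328-6872) was the most abundant member, at 9034, 8599, 9355 and 8887 FPKM with TABS and 9546, 10417, 9394 and 9214 with HA/Mg. HA/Mg library 6 was the highest, and the groups overlapped at HA/Mg library 8. The log2 change was -0.10 ± 0.07 (limma, adjusted p = 0.342). mt-Co2 (chrM:7013-7696) was at 1689, 1581, 1463 and 1407 FPKM with TABS and 1675, 1415, 1730.0 and 1839.8 with HA/Mg (log2 change -0.11, limma, adjusted p = 0.393). mt-Co3 (chrM:8607-9390) was at 2287, 2292, 1864 and 2132 FPKM with TABS and 2136, 1999.8, 2171 and 2029 with HA/Mg. It was the only mRNA with a positive log2 change, of 0.04 ± 0.08 (limma, adjusted p = 0.761), and the sign turned when libraries were quantile normalized or scaled to equal sums.

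The ATP synthase makes ATP from the proton gradient, and mt-Atp6 and mt-Atp8 encode parts of its membrane domain. mt-Atp8 (chrM:7766-7969) was at 968, 883, 1385 and 827 FPKM with TABS and 1067, 1538, 894 and 798 with HA/Mg, a log2 change of -0.06 ± 0.22 (limma, adjusted p = 0.856). TABS library 7 and HA/Mg library 6 were again the high ones, as for mt-Nd6. mt-Atp6 (chrM:7927-8607) was at 309, 272, 295 and 308 FPKM with TABS and 321, 360.0, 291 and 297 with HA/Mg, a log2 change of -0.10 ± 0.07 (limma, adjusted p = 0.363). With quantile normalization it passed, at -0.19 (adjusted p = 0.0326). Per length, mt-Atp8 was listed at 2.69 to 4.70 times the FPKM of mt-Atp6 in the 8 libraries although both lie on the same mRNA, and a nuclear copy described below held most of the fragments of mt-Atp6 sequence.

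The 13 mRNAs together held 2.99%, 2.87%, 2.95% and 2.85% of FPKM times length in TABS libraries 5 to 8, and 3.15%, 3.28%, 3.15% and 3.17% in the HA/Mg libraries. Every TABS library lay below every HA/Mg library, with means of 2.91% ± 0.0653 and 3.19% ± 0.0606 (SD, n = 4 each). These shares leave out the nuclear copies on chr1 described below, which held 0.753% to 0.807% with TABS and 0.794% to 0.830% with HA/Mg. They were not corrected for the trends on GC content described below. No test was made on a sum over the members. mt-Co1 made up 53.4% to 56.3% of the summed FPKM of the 13 with TABS and 52.2% to 56.9% with HA/Mg. The 7 mRNAs of complex I made up 11.3% to 12.1% of that sum with TABS and 12.1% to 16.4% with HA/Mg. The means were 11.7% ± 0.331 and 14.3% ± 1.80 (SD, n = 4 each), and HA/Mg library 6 lay within the TABS range while the other HA/Mg libraries lay above it. These parts of the sum use listed FPKM, from which the copies take unlike portions of the 13 mRNAs. With the copy's fragments added, TABS library 5 was at 9755 FPKM for mt-Co1 (listed at 9034), 4573 for mt-Co3 (2287) and 1942 for mt-Atp6 (309). The parts were not computed with copies added.

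A ratio between mitochondrial genes within a library does not depend on how the library was scaled, and 10 such ratios were tested. With 4 against 4 libraries the exact two-sided permutation test has 70 assignments and a smallest p of 0.0286. None passed after Benjamini-Hochberg adjustment over the 10. A single ratio at that smallest p gets an adjusted p of 0.286 (exact permutation test), so it could not pass alone. Failing this test therefore does not show that a ratio was unchanged. mt-Cytb over mt-Nd1, the last plus-strand mRNA over the first, was 0.729 to 1.09 with TABS and 0.562 to 0.670 with HA/Mg. The groups did not overlap, with a difference of 0.60 on the log2 scale (exact permutation p = 0.0286, adjusted p = 0.286). mt-Nd5 over mt-Nd1 differed by 0.39 in the same direction (exact permutation p = 0.0857, adjusted p = 0.429). mt-Co3 over mt-Co1 differed by 0.14 (exact permutation p = 0.257, adjusted p = 0.857). The other 7 ratios, among them mt-Nd4l over mt-Nd4, mt-Atp8 over mt-Atp6 and mt-Nd6 over mt-Nd5, had an adjusted p of 0.943 each.

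By strand, 19 plus-strand genes were tested and 4 fell, and 7 minus-strand genes were tested with 0 calls in either direction. Beside these counts, 13.1% of all genes tested were lower and 5.07% higher with TABS, and with so few minus-strand genes 0 calls is near that share. The difference between the strands was not tested, and the minus strand holds mt-Nd6 and transfer RNA genes only. Along the plus strand mt-Nd1 is the first mRNA gene and mt-Nd4l, mt-Nd4 and mt-Nd5 follow each other near the end. The 7 mRNA genes between them, from mt-Nd2 to mt-Nd3, and mt-Cytb, the last, did not pass. As a description across genes of the same libraries, Spearman's rho between the midpoint of the 12 plus-strand mRNAs and their log2 change was 0.13. Over the 13 mRNAs rho was 0.12 with GC content and -0.02 with length.

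**Figure D2:**
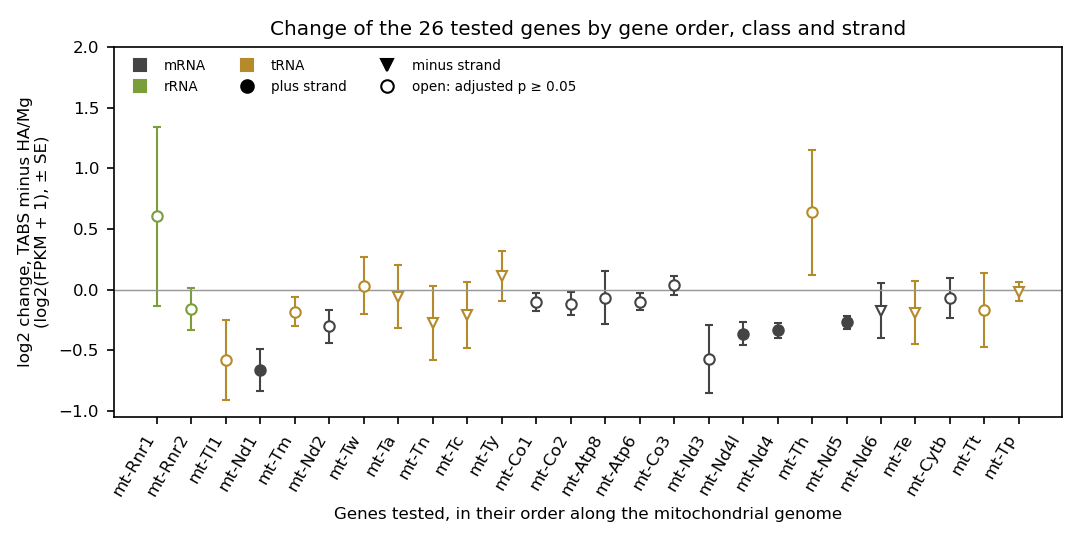
Log2 change (TABS minus HA/Mg) of the tested mitochondrial genes in their order along the genome, with bars for the standard error, colours for the class and shapes for the strand. The filled points, which passed the test, are mt-Nd1, mt-Nd4l, mt-Nd4 and mt-Nd5, and the widest errors belong to mt-Rnr1 and mt-Th.

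The mitochondrial mRNAs are poor in G and C, at 31.9% to 41.1% against a median of 49.8% over the genes tested. The 8 libraries also differed in a trend of level on GC content, with slopes of 0.0448 to 0.104 on the log2 scale for each 10 points of GC with TABS and -0.102 to -0.0297 with HA/Mg. When each library's trends on length and GC content were removed, none of the 13 mRNAs passed. Over all 10161 genes tested, 384 fell with those trends removed, against 1327 before. mt-Nd1 then had a log2 change of -0.52 ± 0.17 (limma, adjusted p = 0.0891), mt-Nd4 -0.18 (adjusted p = 0.125), mt-Nd4l -0.25 (adjusted p = 0.192) and mt-Nd5 -0.10 (adjusted p = 0.249). All 7 mRNAs of complex I stayed negative, with a median of -0.18, and the 6 others turned or remained positive, with a median of 0.05.

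The 2 ribosomal RNA genes encode the RNAs of the mitochondrial ribosome, which translates the 13 mRNAs. mt-Rnr1 (chrM:70-1024), the small ribosomal RNA, was at 244, 273, 254 and 315 FPKM with TABS and 337, 289, 25.9 and 383 with HA/Mg. HA/Mg library 7 was far below the other 7 libraries, and the test with it gave a log2 change of 0.60 ± 0.74 (limma, adjusted p = 0.580). Without that library the sign turned, to -0.31 ± 0.11 (limma, adjusted p = 0.126). mt-Rnr2 (chrM:1094-2675), the large ribosomal RNA, was at 23.3, 25.7, 21.4 and 34.1 FPKM with TABS and 29.7, 21.7, 28.6 and 37.2 with HA/Mg (log2 change -0.16 ± 0.17, limma, adjusted p = 0.532). It was not low in HA/Mg library 7, and each of the 13 mRNAs lay there within the range of the other libraries. mt-Rnr2 over mt-Rnr1 was 0.0749 to 0.108 in 7 libraries and 1.11 in HA/Mg library 7. No source used here says whether ribosomal RNA was removed or polyadenylated RNA selected, so the ribosomal values are levels in these libraries only.

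Transfer RNA genes are shorter here than the 150-base reads, at 59 to 75 bases. A read of full length runs past such a gene. Whether these values come from mature transfer RNAs or from longer RNA that holds them therefore cannot be told apart. Of the 22 genes 11 were tested and none passed. Their log2 changes had a median of -0.17. The highest listed FPKM was that of mt-Tp, the proline transfer RNA, followed by mt-Te, the glutamate transfer RNA, and mt-Tl1, a leucine transfer RNA. The sequences of mt-Te and mt-Tp, the minus-strand transfer RNAs with the most fragments, follow as read on their own strand from GENCODE M21 on GRCm38, with mt-Te at chrM:14071-14139 and mt-Tp at chrM:15356-15422.
mt-Te: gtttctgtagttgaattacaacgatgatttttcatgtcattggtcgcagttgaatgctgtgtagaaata
mt-Tp: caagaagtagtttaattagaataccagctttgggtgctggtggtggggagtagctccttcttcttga
mt-Tp was at 63.0, 51.4, 63.9 and 66.3 FPKM with TABS and 65.6, 62.7, 59.4 and 58.8 with HA/Mg, from an estimated 68 to 100 fragments a library. Its groups overlapped (log2 change -0.02 ± 0.08, limma, adjusted p = 0.901). mt-Te was at 13.3, 10.3, 25.99 and 13.1 FPKM with TABS and 18.8, 22.02, 15.8 and 12.5 with HA/Mg (log2 change -0.19 ± 0.26, limma, adjusted p = 0.625). It lies directly beside mt-Nd6 on the same strand, and TABS library 7 and HA/Mg library 6 were the highest for both genes.

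mt-Tl1 lies between mt-Rnr2 and mt-Nd1 and was at 12.97, 13.7, 5.62 and 7.88 FPKM with TABS and 16.8, 7.85, 14.6 and 23.3 with HA/Mg (log2 change -0.58 ± 0.33, limma, adjusted p = 0.236). HA/Mg library 6 was the lowest of its group for mt-Tl1, as it was for mt-Nd1. The minus-strand genes mt-Ta, mt-Tn, mt-Tc and mt-Ty lie in a row between mt-Nd2 and mt-Co1 and carry alanine, asparagine, cysteine and tyrosine. All 4 were highest in HA/Mg library 8 and lowest in HA/Mg library 6. mt-Tn was at 5.06, 5.87, 4.63 and 5.14 FPKM with TABS and 7.92, 2.60, 6.92 and 11.1 with HA/Mg (log2 change -0.28 ± 0.31, limma, adjusted p = 0.542), and it fell when HA/Mg library 6 was left out (adjusted p = 0.0123). Of all 10161 genes tested, 2452 fell without that library, against 1327 in the main fit.

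mt-Th, the histidine transfer RNA between mt-Nd4 and mt-Nd5, was at 9.01 FPKM in TABS library 6 and at 0.444 to 1.52 in the other 7 libraries, from an estimated 1 to 12 fragments. mt-Tl2, its near neighbour, was likewise at 6.05 FPKM in TABS library 6 and at 0.198 to 1.03 elsewhere. mt-Tm, mt-Tw and mt-Tt, which carry methionine, tryptophan and threonine, were between 0.234 and 2.22 FPKM. The 11 transfer RNA genes that were not tested ranged from 0 to 6.05 FPKM, and mt-Tq was above 0 in 1 library. No test was made on these 11 genes.

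**Figure D3:**
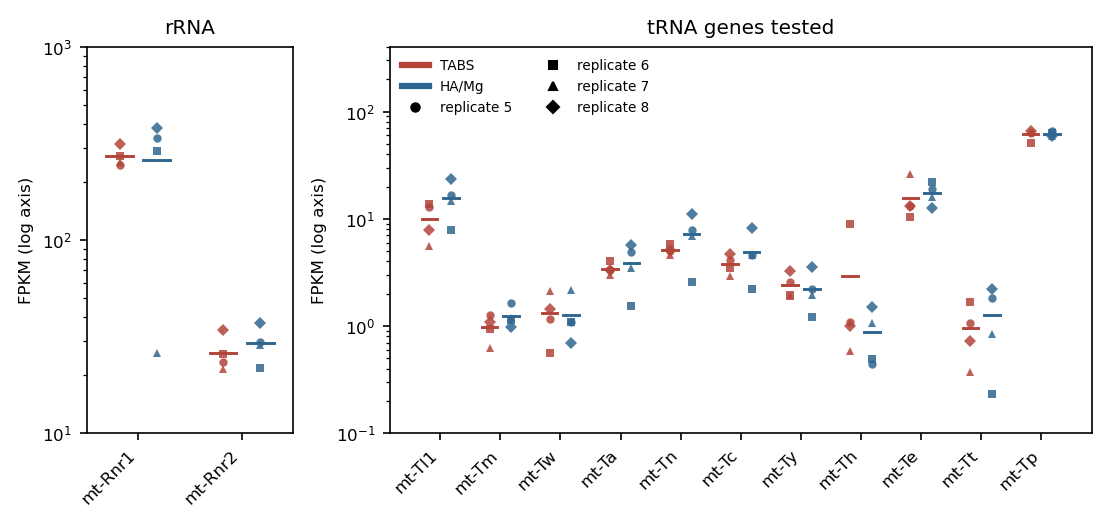
FPKM on a log axis of the 2 ribosomal RNAs and the 11 tested transfer RNAs in each of the 8 libraries, with points for single libraries and bars for the group means. mt-Rnr1 at 25.9 FPKM in HA/Mg library 7 and mt-Th at 9.01 FPKM in TABS library 6 lie away from the other points of their genes.

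Copies of mitochondrial sequence in the nuclear genome share fragments with the true genes. By alignment of transcripts, 23 genes outside the mitochondrial genome matched a member over at least 100 bases, and 9 of them reached 1 FPKM in 4 or more libraries. Of these, 7 are unprocessed pseudogenes in a row on the minus strand of chr1:24611535-24616197, and they match mt-Nd4, mt-Nd4l, mt-Nd3, mt-Co3, mt-Atp6, mt-Co2 and the end of mt-Co1. The copies of mt-Nd4, mt-Nd4l, mt-Co3, mt-Atp6 and mt-Co2 are identical to the gene over the aligned bases. Those of mt-Nd3 and mt-Co1 differ by a substitution each, T3C in Gm28438 and A1066T in Gm29216, counted from 1 at the 5′ end of the mitochondrial gene. The stretches around these bases are shown because they hold the only differences within the aligned bases, 345 for mt-Nd3 and 483 for mt-Co1, with the differing base in capitals.
mt-Nd3: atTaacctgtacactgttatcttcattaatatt
Gm28438: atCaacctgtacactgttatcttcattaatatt
mt-Co1: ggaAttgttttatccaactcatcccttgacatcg
Gm29216: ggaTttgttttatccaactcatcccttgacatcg

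Estimated fragments of the copy relative to the gene were nearly the same in all 8 libraries. Gm28437 held 0.9991 to 1.0001 times the fragments of mt-Co3, Gm28661 held 0.9997 to 1.0005 times those of mt-Co2 and Gm10222 held 0.992 to 0.999 times those of mt-Nd4l. For these copies a ratio near 1 does not by itself show whether such fragments were counted for both genes or split evenly. Gm28439, which matches the first 876 bases of mt-Nd4, held 0.404 to 0.425 times its fragments. Gm10925, identical to mt-Atp6 over 678 aligned bases, held 5.06 to 5.93 times the fragments of mt-Atp6, at 1490 to 2061 FPKM. The listed level of mt-Atp6 is therefore far below that of the sequence, and the shared fragments were not all counted for both genes. How they were assigned was not tested. Gm29216 held 0.0736 to 0.0835 times the fragments of mt-Co1. On chr2, Gm13341 and Gm13340 were near 2.12 and 1.56 FPKM on average and differ from mt-Co2 and mt-Co1 at more bases.

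Of the 7 copies on chr1, 2 fell and 5 did not pass. Gm28439 fell by 0.37 ± 0.07 on the log2 scale (limma, adjusted p = 0.0126) and Gm10222 fell by 0.36 ± 0.10 (limma, adjusted p = 0.0378), and neither is independent of mt-Nd4 and mt-Nd4l. With each copy's fragments added to its gene the same 4 mRNAs fell, with mt-Nd4 at -0.34 (limma, adjusted p = 0.0135). mt-Nd1, mt-Nd2, mt-Nd5, mt-Nd6, mt-Cytb, mt-Atp8 and the ribosomal RNAs had no match of at least 100 bases in the chr1 row. The copy of mt-Atp6 matches it from base 1, so it holds the 43 bases that mt-Atp6 shares with mt-Atp8. Only annotated transcripts were aligned, so sequence between the annotated copies was not searched.

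**Figure D4:**
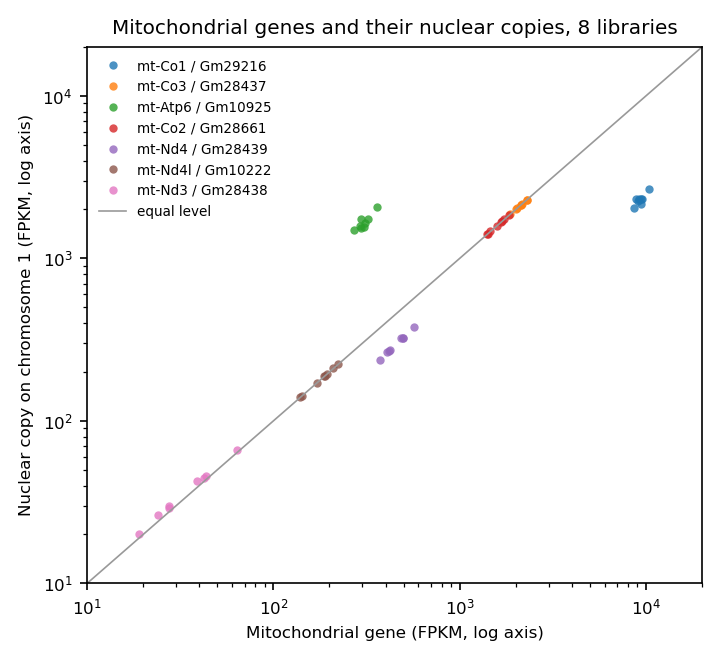
FPKM of each of the 7 nuclear copies on chromosome 1 against FPKM of the mitochondrial gene it matches, both on log axes, with a point for each of the 8 libraries and a line at equal level. The copies of mt-Co2, mt-Co3 and mt-Nd4l lie on the line, that of mt-Atp6 above it and those of mt-Co1 and mt-Nd4 below it.

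The nuclear genes of the same complexes were counted from lists. Of 75 nuclear subunits of complexes I to IV and the ATP synthase, 3 rose, 1 fell and 71 did not pass. Their median log2 change was 0.09, and 58 were positive, beside 4295 of the 10161 genes tested. Over all genes tested 5.07% rose and 13.1% fell. Of the 36 nuclear subunits of complex I, 1 fell and 35 did not pass, with a median of 0.08, beside 4 of 7 that fell and a median of -0.33 for the mitochondrial subunits. The difference between these lists was not tested. The gene that fell was Ndufs1, an iron-sulfur subunit of complex I, at 15.7 ± 0.857 FPKM with TABS and 19.4 ± 1.29 with HA/Mg (log2 change -0.29, limma, adjusted p = 0.0168). In complex III, 2 of 9 rose, Uqcrc1 by 0.14 (limma, adjusted p = 0.0335) and Uqcrq by 0.23 (limma, adjusted p = 0.0208). In complex IV, 1 of 11 rose, Cox4i1, a regulatory subunit, at 260 ± 10.2 FPKM with TABS and 224 ± 15.6 with HA/Mg (log2 change 0.22, limma, adjusted p = 0.0308). None of the 4 subunits of complex II, which has no mitochondrial gene, and none of the 15 of the ATP synthase passed. The smallest adjusted p were 0.224 for Sdhd and 0.0636 for Atp5g1, and under alternatives Atp5g1 passed in 4 cases, down to an adjusted p of 0.0147 where array weights were used.

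**Figure D5:**
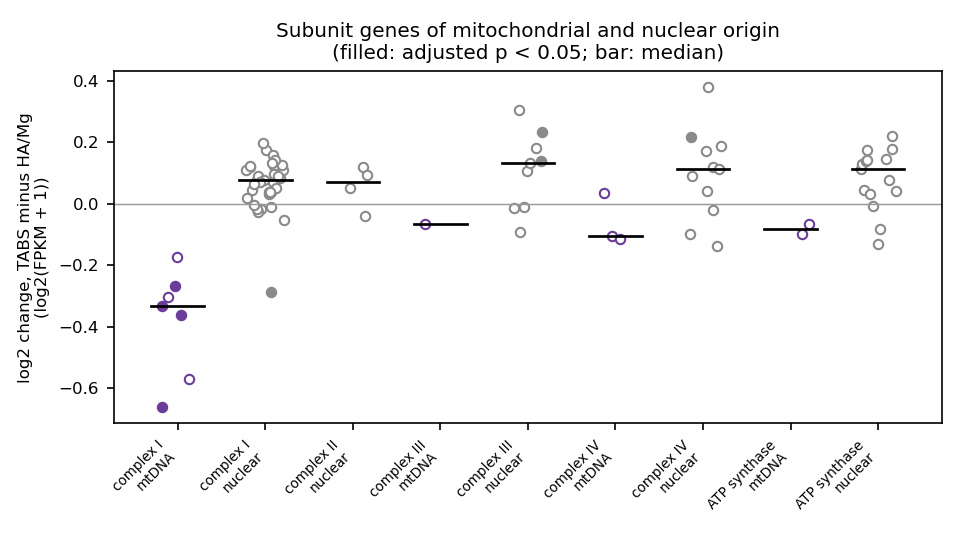
Log2 change (TABS minus HA/Mg) of mitochondrial and nuclear subunits of each respiratory complex, with a point for each gene, filled where it passed the test, and a bar for the median. The mitochondrial subunits of complex I all lie below 0, with a median of -0.33, and the nuclear ones have a median of 0.08.

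Lists of nuclear genes that act on mitochondrial DNA and RNA were counted the same way, beside 13.1% lower and 5.07% higher over all genes tested. No list was tested against that share. Of 7 tested genes of mitochondrial transcription none passed, with a median of -0.14. Tfam, which packages mitochondrial DNA and starts its transcription, was at 5.77 ± 0.701 FPKM with TABS and 7.44 ± 0.895 with HA/Mg (log2 change -0.32, limma, adjusted p = 0.0522). Tfam passed under 8 of 24 alternatives, among them scaling to equal sums (adjusted p = 0.0445), and its adjusted p ranged from 0.0098 with array weights to 0.139 without HA/Mg library 7. Of 18 genes of mitochondrial RNA processing and stability 5 fell, none rose and 13 did not pass, with a median of -0.17. Grsf1, which binds G-rich mitochondrial RNA in RNA granules, was at 37.2 ± 0.918 FPKM with TABS and 46.4 ± 2.46 with HA/Mg (log2 change -0.31, limma, adjusted p = 0.0086). Pnpt1, a mitochondrial exoribonuclease, fell by 0.30 (limma, adjusted p = 0.0132). Fastkd1 fell by 0.30 (limma, adjusted p = 0.0202), and Lrpprc, which stabilises mitochondrial mRNAs, fell by 0.25 (limma, adjusted p = 0.0354). The remaining gene of the 5 was Pde12, which removes poly(A) tails in mitochondria (log2 change -0.30, limma, adjusted p = 0.0412).

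Of 11 genes of mitochondrial DNA replication 2 fell and 9 did not pass, with a median of -0.10, beside 13.1% lower over all genes tested. The 2 that fell were Mgme1, an exonuclease (log2 change -0.36, limma, adjusted p = 0.0261), and Twnk, the helicase (log2 change -0.27, limma, adjusted p = 0.0456). Of 12 mitochondrial translation factors 1 rose and 3 fell. Tufm, the elongation factor that brings transfer RNAs to the ribosome, was at 79.5 ± 0.858 FPKM with TABS and 69.5 ± 1.10 with HA/Mg (log2 change 0.19, limma, adjusted p = 0.0114), and Gfm1, Mtrf1 and Guf1 fell by 0.15, 0.21 and 0.24. Of 17 tested mitochondrial aminoacyl-tRNA synthetases 1 fell, Nars2 for asparagine, from 3.29 FPKM with HA/Mg to 1.85 with TABS (log2 change -0.59, limma, adjusted p = 0.0139). When the trends on length and GC content were removed, Uqcrq, Grsf1, Mgme1, Twnk and Nars2 kept their calls. Ndufs1 was then at an adjusted p of 0.0522, Cox4i1 at 0.206, Uqcrc1 at 0.123, Lrpprc at 0.116, Pnpt1 at 0.181, Pde12 at 0.328, Fastkd1 at 0.0973, Tufm at 0.0828, Gfm1 at 0.878, Mtrf1 at 0.141 and Guf1 at 0.988. With no filter on low values Cox4i1, Gfm1, Guf1, Lrpprc, Mgme1, Mtrf1, Pde12 and Twnk lost their calls, with adjusted p from 0.0586 for Guf1 to 0.108 for Twnk. Uqcrc1 was not called with equal sums, quantile normalization, mitochondrial genes left out of the sum or no mean-variance trend, with adjusted p from 0.0579 to 0.158. Gfm1 was lost with median-of-ratios scaling (0.221) and no mean-variance trend (0.0693), Mtrf1 with median-of-ratios scaling (0.0525) and quantile normalization (0.0900), and Guf1 with quantile normalization (0.104). With each library left out in turn, 3 of these 16 nuclear genes, Grsf1, Pnpt1 and Tufm, kept their calls throughout. The other 13 lost theirs in 1 to 7 of 8 cases, and each of them without HA/Mg library 5.

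The mean log2 level of the 13 mRNAs followed most closely that of mt-Nd5 (Pearson's r = 0.984 over the 8 libraries) and mt-Nd4 (r = 0.962), with mt-Nd1 at 0.864. mt-Co3 and mt-Atp8 were at -0.07 and -0.11. Each of the 13 is itself part of that mean, which raises its r. Outside the mitochondrial genome the genes most like that mean were Nek4 (r = 0.979), Zfp36l1 (0.979), Ythdf1 (0.978), Parn (0.974) and Gm28439 (0.972), the last a copy of mt-Nd4. These values describe 8 libraries that share the same scaling and the same groups, and were picked as the highest of all genes tested.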

How the data were processed

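RNA-seq was made from 8 libraries of RAW264.7 cells, 4 with TABS and 4 with HA/Mg, grouped by sample titles. Per the labels' protocols, TRIzol RNA with an integrity number above 7 went into NEBNext Ultra libraries, read on a NovaSeq as 150-base pairs. The submitters' processing notes name fastp, STAR, DESeq2 and GRCm38. The tool behind the FPKM values, the annotation and the treatment of strand were not given.

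The authors deposited FPKM values for 55335 genes, of which 55154 identifiers matched GENCODE M21. Counts were not used. Estimated fragments are FPKM times length scaled by a depth read from the spacing of low values, of which 23.8% to 25.4% were whole within 0.05, so depth is approximate and no count test was run.

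The test of differences was limma's (3.58.1, R 4.3.3), two-sided, on log2(FPKM + 1) with a mean-variance trend, over the 10161 genes that reached 1 FPKM in 4 or more libraries, and with Benjamini-Hochberg adjustment. This scale understates the change of low genes. Ratios used an exact permutation test over 70 assignments. Nuclear copies were found with blastn 2.17.0. Steps were tested on simulated data. Alternatives were other pseudocounts, filters, scalings, moderation settings, the replicate number as a block, each library left out, and removal of length and GC trends (splines with 4 degrees of freedom). Added after seeing the data were leaving out TABS 7 with HA/Mg 6, and adding copies to their genes.

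The members and lists were chosen with earlier results of these data known. Named were all mRNAs and ribosomal RNAs, tested transfer RNAs, expressed copies, up to 4 changed genes of each list (otherwise the 2 smallest p) and the 5 genes most like the mean of the mRNAs. Pde12, mt-Tl2 and mt-Tq were named after their values were seen.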

Additional observations from a re-analysis of the deposited data

Results flagged for a closer look

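In groups of 4 libraries, a library was set apart where its gap to the nearest other, divided by the group's range, exceeded Dixon's critical value for 4 values. Chance gives this in about 1 in 20 groups, and 5 of the 92 groups examined had it. mt-Rnr1 in HA/Mg library 7 was at 4.75 on the log2(FPKM + 1) scale while the rest of its group lay at 8.18 to 8.58, a gap of 0.895 of the range. mt-Rnr2 over mt-Rnr1 was at 0.14 there, as a log2 ratio, against -3.74 to -3.36, a gap of 0.903. mt-Th in TABS library 6 was at 3.32 against 0.67 to 1.06, a gap of 0.853. mt-Nd4 in HA/Mg library 8 was at 9.15 against 8.93 to 8.96, a gap of 0.857, and its nuclear copy Gm28439 was at 8.57 there against 8.34 to 8.35, a gap of 0.975. The cause of these values was not tested.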

How the results depend on the processing

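mt-Nd1, mt-Nd4, mt-Nd4l and mt-Nd5 kept a negative log2 change under all 24 alternatives, and the mRNAs that fell numbered 2 with no filter on low values, 0 with length and GC trends removed, 3 with median-of-ratios scaling, 5 with quantile normalization, array weights or TABS 7 and HA/Mg 6 left out together, and 1 to 6 with a library left out. Numbers of genes changed, higher and lower with TABS were 808, 220 and 588 with no filter, 647, 263 and 384 with those trends removed, 3532, 1048 and 2484 with array weights, and 429 to 3320, 108 to 868 and 321 to 2452 with a library left out. Without TABS 7 and HA/Mg 6 together 2919 changed and 2168 were lower. Genes higher numbered 251 with equal sums, 858 with median-of-ratios scaling, 806 with quantile normalization and 231 with mitochondrial genes left out of the sum. As a share of summed FPKM the mRNAs differed by -0.613 percentage points. Without filter or with fewer libraries, more genes or fewer samples enter the test. Otherwise the cause was not tested.

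In limma with a block for the replicate number, 0 genes passed, 0 higher and 0 lower and 0 mRNAs, with 2987 genes at an unadjusted p under 0.05 and a smallest adjusted p of 0.0589. Residuals of same-numbered libraries correlated at 0.0106, -0.275, -0.160 and 0.129, and TABS 8 alone correlated best with its own number. No source used here says whether same-numbered libraries shared a culture or a batch, and these correlations cannot decide it. Paired ratios, tested by flipping the signs of the 4 paired differences, had an adjusted p of 1 each. With 4 pairs that test cannot reach a p under 0.05, so it could not decide whether a ratio changed.

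Log2 changes that turned with length and GC trends removed were mt-Rnr2 at 0.0050, mt-Ta at 0.061, mt-Co1 at 0.050, mt-Co2 at 0.022, mt-Atp8 at 0.0501, mt-Atp6 at 0.042, mt-Cytb at 0.081, mt-Tp at 0.051, Guf1 at 0.0026, Gm29216 at 0.037, Gm10925 at 0.047, Gm28661 at 0.021 and Gm13340 at 0.020. With quantile normalization mt-Ta was at 0.029, mt-Co3 at -0.051, Sdhd at -0.00653 and Gm28437 at -0.069. With equal sums mt-Co3 and Gm28437 were at -0.014, and with mitochondrial genes left out of the sum at -0.023, with mt-Tw at -0.00125. mt-Tp was at 0.036 with median-of-ratios scaling, and mt-Tw was at -0.15 with array weights and without TABS 7 and HA/Mg 6 together.

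With a library left out, ranges that crossed 0 were -0.31 to 0.97 for mt-Rnr1, -0.22 to 0.12 for mt-Atp8, -0.17 to 0.038 for mt-Cytb, -0.39 to 0.027 for mt-Nd6, -0.35 to 0.12 for mt-Ta, -0.47 to 0.042 for mt-Tc, -0.057 to 0.064 for mt-Tp, -0.43 to 0.032 for mt-Tt, -0.12 to 0.21 for mt-Tw and -0.052 to 0.29 for mt-Ty. For log2 ratios they were -1.15 to 0.14 for mt-Rnr2/mt-Rnr1, -0.13 to 0.16 for mt-Atp8/mt-Atp6, -0.085 to 0.037 for mt-Nd4l/mt-Nd4, -0.11 to 0.29 for mt-Nd6/mt-Nd5, -0.42 to 0.17 for mt-Nd6/mt-Cytb, -0.12 to 0.061 for mt-Co2/mt-Co1 and -0.23 to 0.085 for mt-Rnr2/mt-Co1. Transfer RNAs rest on few fragments, which limits their precision.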
